A study of Mus musculus with 6 samples.

Results

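Pericytes and smooth muscle cells of the mouse lung were taken from 6 single-cell libraries by an expression rule. A barcode was a member when at least 3 of 5 mural genes (Acta2, Myh11, Cspg4, Pdgfrb and Notch3) each had at least 1 UMI, the molecular tag that marks 1 captured RNA molecule, and when 6 genes of other lineages (Pdgfra, Ptprc, Cdh5, Lamp3, Foxj1 and Msln) had 0. The rule was applied to the 44096 barcodes with at least 500 genes, at least 1000 UMIs and under 15% mitochondrial UMIs, and 65 of them (0.147%) met it. Control libraries 1 to 4 held 7, 14, 12 and 8 members, and the libraries labelled Zip8 knockout 1 and 2 held 12 each. Because the rule used the measured values of these 11 genes, the members were selected on them, and their levels are a description with no test.

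The libraries were made from lung cells that lack CD45 (CD45-), depleted of leukocytes on magnetic beads. The mice were labelled C57BL/6, were 10 to 12 weeks old and had received tamoxifen 4 times, with an interval of 2 weeks before the cells were taken. The libraries labelled Zip8 knockout came from Zip8AEC2 mice, which carry SFTPC-CreER, Rosa26-tdTomato and Slc39a8 flox/flox; Slc39a8 encodes the zinc importer ZIP8. Controls were littermates given tamoxifen too, and which alleles the sequenced littermates carried is not given in the sources used here. For its organoid experiment the study names a comparison line with SFTPC-CreER and Rosa-Tomato but no Slc39a8 flox alleles. Cre in these mice is driven by the Sftpc promoter of type 2 alveolar epithelial cells (AEC2s), so pericytes and smooth muscle cells were not its target.

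Each library held between 93852253 and 118771907 UMIs, and the members summed to 59197, 109776, 91314 and 31761 UMIs in controls 1 to 4 and to 123434 and 63436 in the libraries labelled Zip8 knockout 1 and 2. A member had a median of 6150 UMIs (1581 to 49361) and 2335 genes. Slc39a8 itself could not be followed in the members, in which 3 UMIs were counted, 1 each in controls 2, 3 and 4. In barcodes with AEC2 genes it stood at 201, 175, 163 and 203 counts per 1000000 UMIs (CPM) in controls 1 to 4, against 195 and 202 CPM under the knockout label. The 3′ tags thus showed no lower level where a deletion is labelled, and whether they lie in the deleted part is not given in the sources used here.

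Barcode sequences recurred between libraries: 51016 of 88578 (57.6%) were present in more than 1 library. Of the 65 members, 8 shared a barcode with another library, and in 1, of control 4, the other library held more UMIs. A doublet score built from simulated pairs of barcodes marked 16 members, of which 13 lay in control 2, 2 in control 3 and 1 in the library labelled Zip8 knockout 1. List counts that changed without these barcodes are therefore given both ways for the lists described.

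Mural cells wrap vessels and airways. Smooth muscle cells of arteries, veins and airways contract through smooth muscle actin (Acta2) and smooth muscle myosin heavy chain (Myh11), whose sliding is controlled by myosin light chains, calponin, tropomyosins and desmin-linked anchors, under transcription by serum response factor with its cofactor myocardin. Pericytes lie along capillaries inside the basement membrane, are recruited by PDGF-B acting on Pdgfrb, depend on Notch3, carry the proteoglycan Cspg4 (NG2), and in lung typically express Rgs5, Higd1b, Cox4i2, Kcnj8 and Vtn with little Myh11.

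The members carried the genes of the smooth muscle contractile apparatus and part of the pericyte list, in which Postn, Gucy1a3, Mcam and Gucy1b3 were the most abundant and Higd1b, Vtn and Zic1 were at or near 0. Acta2 (chr19:34241090-34255590, minus strand, GRCm38) had UMIs in all 65 members, with a median of 52 and a maximum of 602, and Myh11 (chr16:14194535-14291372, minus strand) in 64, with a median of 7 and a maximum of 56. The receptor Pdgfrb was detected in 43 members with 74 UMIs in all, Notch3 (chr17:32120820-32166852, minus strand) in 37 with 96, and Cspg4 (chr9:56865033-56899870, plus strand) in 35 with 67. All 3 were thus sparse next to Acta2, and 28, 25 and 12 members had 3, 4 and 5 of the marker genes. For comparison, Acta2 had a UMI in 12.02% and Myh11 in 0.315% of barcodes gated as fibroblasts, and in 3.59% and 0.494% of barcodes gated as endothelial cells. Both gates admit barcodes with at most 1 of the 5 mural genes, which caps these shares.

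Tagln, the actin-binding protein transgelin, was not in the rule and had 3937 UMIs in 62 members. The myosin light chains Myl6 and Myl9 were detected in 65 and 60 members, tropomyosin Tpm2 in 64, Csrp1 in 63, filamin A (Flna) in 61, desmin (Des) in 56, leiomodin (Lmod1) in 54 and calponin (Cnn1) in 45. Of the 27 contractile genes listed beside Acta2 and Myh11 and present in the files, 26 had UMIs, and the list summed to 31415 CPM with Tagln the most abundant. Only Pln, phospholamban, was at 0.

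The pericyte list stood at 1526 CPM, with UMIs for 16 of its 18 genes in the files. It summed to 1588, 1858, 1248 and 1700 CPM in controls 1 to 4 against 1240 and 1766 CPM under the knockout label, and these ranges overlapped. Its most abundant genes were Postn with 139 UMIs, Gucy1a3 with 130, Mcam with 110 and Gucy1b3 with 78, while Rgs5 had 18 UMIs in 9 members and Higd1b 1 UMI in 1 member. Vtn and Zic1 had 0 UMIs in the 65 members, which allows a share of up to 4.62% of cells with a UMI by counting error alone and does not limit the cells that express them. Of all kept barcodes, 228 had Rgs5, 39 had Higd1b and 3 had both, and 97 had both Cspg4 and Pdgfrb, of which 71 lacked Myh11 and 9 lacked both Myh11 and Pdgfra. The members are called Acta2/Myh11 cells below, after a pair of genes of the rule that nearly all of them carried.

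The edges of the rule were of uneven kind. The 28 members with exactly 3 markers had a median of 4941 UMIs, 25 had a Tagln UMI and 11 a Dcn UMI. Just outside, 121 barcodes with 2 markers and no lineage gene had Acta2 in 103 and Myh11 in 40, Tagln in 55 and the fibroblast proteoglycan Dcn in 106. Another 84 barcodes had at least 3 markers and also a lineage gene, which was Pdgfra in 65.

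Genes that define other cell types were checked for the whole list. Of 8 immune genes 7 were at 0, Ptprc among them by the rule, and Cd74 had 38 UMIs. Of 14 endothelial genes 12 had UMIs, led by Ednrb with 70, and Emcn and Tie1 were at 0. Of 9 cardiac muscle genes 6 had UMIs, 693 in all, of which 642 were of Actc1 and 32 of Tnnt2 (12 members), while Myh6, Tnni3 and Nppa were at 0. Against fibroblasts, in the comparison described below, 4 of the 5 tested rose, and 3 of 3 tested without likely doublets. The fibroblast list held 2591 UMIs led by Dcn with 818, the AEC2 list 1242 UMIs led by Sftpc with 656, and the club cell list 32308 UMIs, of which 27795 were Scgb1a1 UMIs of 1 barcode. The cell cycle genes Mki67 and Top2a were at 0.

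The 65 cells did not form 1 even population. In 52 of them Myh11, Acta2 and Tagln had medians of 17, 74.5 and 54.5 UMIs. A further 9 had at least 3 UMIs of Hhip, the hedgehog-interacting protein (chr8:79965851-80058006, minus strand), and 4 had at least 100 UMIs of Dcn (chr10:97479609-97518143, plus strand). Both thresholds were chosen after the values were seen, so these classes are described and not tested.

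The 52 other cells numbered 4, 12, 10 and 8 in controls 1 to 4 and 9 and 9 in the libraries labelled Zip8 knockout. They held all 642 UMIs of Actc1, cardiac alpha-actin, which also occurs in smooth muscle of lung vessels and airways, spread over 40 cells. Cells of both other classes had none. Mcam, a cell adhesion molecule of smooth muscle and pericytes, had all of its 110 UMIs in 40 of the 52 cells. Postn, a matricellular protein, had 137 of its 139 UMIs in 30 of them.

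The 9 Hhip cells came from 5 libraries, with 2, 1 and 1 in controls 1 to 3 and 2 and 3 in the libraries labelled Zip8 knockout 1 and 2. Their Hhip counts ran from 3 to 49 UMIs (median 27). Myh11 was low, at 1 to 4 UMIs a cell, Acta2 had a median of 3 UMIs and Tagln one of 32, so each gene was lower than in the 52 other cells by its median. In sums that include the large barcode described below, matrix lists were lower too, with elastic fibre and interstitial genes summing to 2399 CPM against 6287 and basement membrane genes to 942 against 2842. Among genes picked after their values were seen, Aspn (asporin) was at 1893 CPM, and in the 9 cells against the 52 other cells Igfbp5 was at 1772 against 373 CPM, Lum (lumican) at 516 against 9.47, Tgfbi at 314 against 3.16, Wnt5a at 223 against 6.32 and the Wnt inhibitor Wif1 at 182 against 15.8. Actc1, Itga8, Mcam, Postn and Col18a1 had 0 UMIs in these 9 cells. Among all kept barcodes 541 had at least 3 Hhip UMIs, of which 419 carried Pdgfra, 196 Tagln and 42 Myh11.

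The 4 Dcn cells, 1 in each of controls 1 to 3 and 1 in the library labelled Zip8 knockout 1, had 106 to 279 Dcn UMIs and a median of 16076 UMIs in all. They were members through few UMIs of the marker genes, with Myh11 at 1 or 2, Acta2 at 1 to 5 and Pdgfrb at 1 or 2 UMIs a cell, and had 1 Tagln UMI among them. Igfbp6 stood at 4413 CPM against 34.7 in the 52 other cells, complement C3 at 4271 against 66.3, Efemp1 at 1119 against 6.32 and Wnt4 at 993 against 3.16. The mesothelial genes Upk3b (26 and 29 UMIs) and Lrrn4 (27 and 17 UMIs) were present in 1 cell each of controls 1 and 2, although Msln was at 0 by the rule. Wt1, of the same list, had 10, 5 and 28 UMIs in the cells of control 1, control 2 and the library labelled Zip8 knockout 1, so 3 of the 4 cells held a mesothelial gene.

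The largest member was an Hhip cell of the library labelled Zip8 knockout 1 with 49361 UMIs, 39.99% of that library's member sum. Scgb1a1, the secretory protein of club cells, made up 27795 of its UMIs (56.3%), with 309 of Cyp2f2 and 252 of Scgb3a2, beside 26 of Hhip, 6 of Tagln, 3 of Acta2 and 1 of Myh11. In the other 64 members Scgb1a1 ran from 13 to 196 UMIs (median 52). The doublet score did not mark this barcode, and it held 49361 of the 98778 UMIs of the Hhip class. Without it the 8 other Hhip cells stood at 14165 CPM for the contractile list, 4351 for elastic fibre and interstitial genes and 1761 for basement membrane genes, each still below the 52 other cells. Their levels of Aspn (3582 CPM), Igfbp5 (2793), Lum (890.4), Tgfbi (567), Wnt5a (384) and Wif1 (364) were further above those of the 52 other cells.

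**Figure D1:**
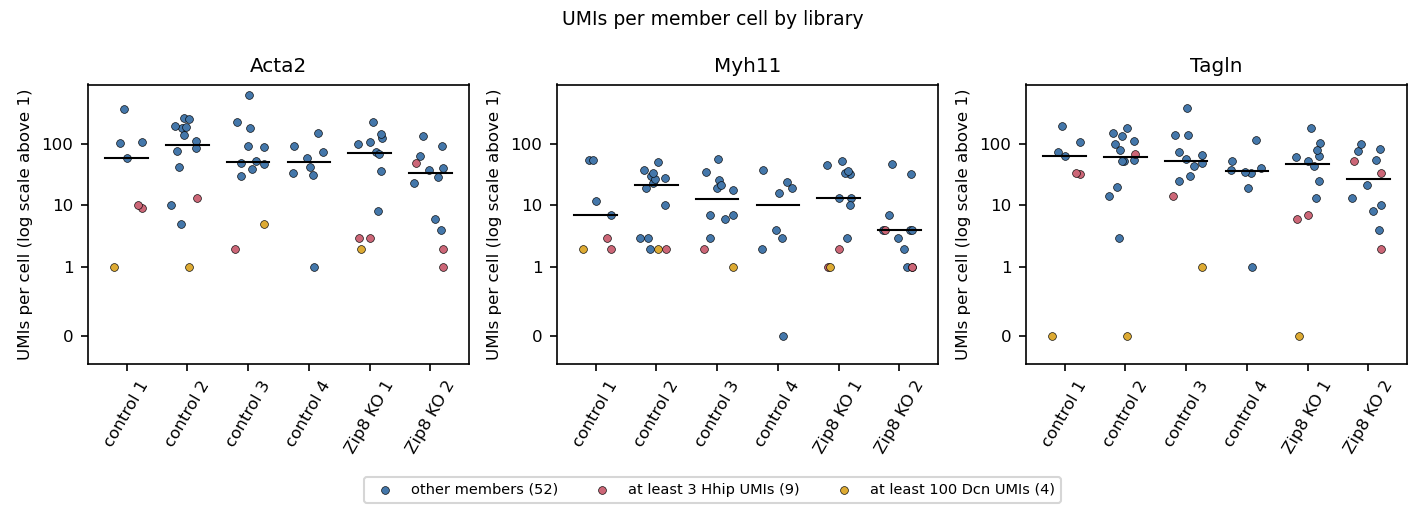
UMIs per member cell of Acta2, Myh11 and Tagln (symmetric log axis) in each of the 6 libraries, 1 point a cell, coloured by class (9 Hhip cells, 4 Dcn cells, 52 others), with a line at the library median. Dcn cells have 0 or 1 Tagln UMI, and Hhip and Dcn cells have at most 4 Myh11 UMIs and at most 13 Acta2 UMIs, save 1 Hhip cell of the library labelled Zip8 knockout 2 with 48.

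**Figure D2:**
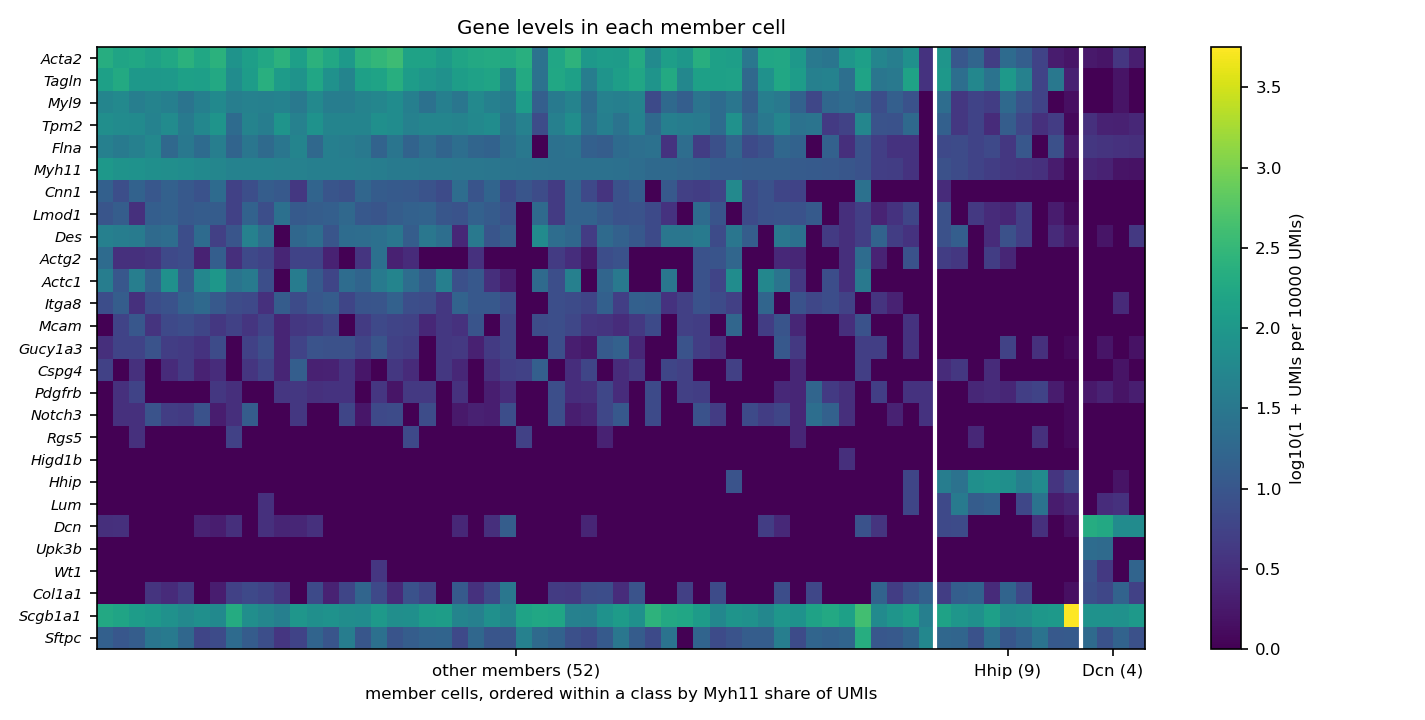
Levels of 27 genes (rows, log10 of 1 plus UMIs per 10000) in the 65 members (columns), in the 3 classes and ordered by the Myh11 share within each. Contractile genes fill the 52 other cells, and Actc1 is blank in the Hhip and Dcn cells.

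A comparison of Myh11-positive with Myh11-negative members was planned and could not be made, because 64 members had Myh11 and 1 did not. The Myh11-negative cell, of control 4, had 3877 UMIs with 1 each of Acta2, Pdgfrb, Notch3 and Tagln. The members were instead split, after their values were seen and with no test, at 10 Myh11 UMIs into 32 high cells and 32 low cells with 1 to 7. High cells numbered 3, 9, 6 and 4 in controls 1 to 4 and 8 and 2 in the libraries labelled Zip8 knockout, and low cells 4, 5, 6, 3, 4 and 10 in the same order. High cells were deeper, with a median of 7269 against 4350 UMIs, and had more mitochondrial RNA, 9.24% against 5.29%, whose part in the differences was not tested. Among all kept barcodes 44 had at least 10 Myh11 UMIs, and the 32 of them with no lineage gene were all members.

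All 24 contractile genes with at least 10 UMIs were higher in the Myh11-high cells, against 3340 of 6098 genes overall (54.8%). The list summed to 48576 CPM in high cells and 13513 CPM in low cells. The 13 Hhip and Dcn cells were all low, and without them the remaining 19 low cells reached 31179 CPM, with 24 of 24 genes still higher in the high cells. Hhip cells stood at 7654 CPM (14165 CPM without the largest member) and Dcn cells at 3893 CPM. Without the largest member all low cells stood at 16904 CPM, 24 of 24 contractile genes were again higher in the high cells, and 2735 of 6098 genes were so overall. The gap thus narrowed but kept its direction among the cells outside the Hhip and Dcn classes.

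Tagln stood at 12420 CPM in high cells and 3864 in low cells and was higher in 5 of 6 libraries. Myl9 stood at 4241 against 788, Flna at 2477 against 488, Lmod1 at 1141 against 200.0 and Des at 1678 against 584, each higher in 6 of 6. The integrin Itga8, also of the contractile list, stood at 888 against 126 CPM and was higher in 6 of 6 libraries. Outside the list, Postn (513 against 56.6 CPM), the basement membrane collagen Col18a1 (811 against 240.0) and the YAP and SRF target Ctgf (3092 against 693) were higher in 6 of 6. Actc1 stood at 2302 against 335 CPM and was higher in 5.

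Mural receptor genes did not all follow. Notch3 stood at 297 against 95.8 CPM and was higher in high cells in 6 of 6 libraries. In the 19 low cells outside the Hhip and Dcn classes, however, Notch3 was at 312 CPM, the opposite order. Cspg4 stood at 220 against 56.6 CPM and was higher in 5, and the same 19 cells were at 134 CPM. Pdgfrb stood at 167 against 139 CPM and was higher in 3. Without the largest member the low cells were at 172 CPM of Pdgfrb, and the 19 low cells were at 238 CPM, both the opposite order. Of the fibroblast genes 3 of 13, of the MHC class I genes 1 of 11 and of the dissociation stress genes 8 of 21 were higher in the high cells. Aspn (212 against 1019 CPM) was higher in the high cells in 1 library and Hhip (0 against 1124 CPM) in none.

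Over the 65 cells, the share of a cell's UMIs given by Myh11 had a Spearman rho of 0.82 with Myl9, 0.82 with Flna, 0.78 with Tpm2, 0.76 with Acta2, 0.73 with Cnn1, 0.69 with Lmod1 and 0.56 with Tagln. It was −0.06 with Pdgfrb, −0.54 with Hhip and −0.04 with UMIs per cell. These values describe 65 cells that share 6 libraries, the rule and their depth, and no p is given.

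The Acta2/Myh11 cells were set against 7302 barcodes of the same libraries gated as fibroblasts (Pdgfra and Col1a2 detected, at most 1 of the 5 mural genes), to show where they part from the other mesenchymal cells. Contractile genes were higher and fibroblast, elastic fibre and stress genes mostly lower. UMIs were summed per library and class, which gave 6 sums against 6 with the library as a block, and tested with edgeR (quasi-likelihood, Benjamini-Hochberg adjustment). The test called 1859 of 11105 genes (16.7%), with 607 higher (5.47%) and 1252 lower (11.3%). Amounts by which genes rose or fell are log2 fold changes with their SE, and levels are TMM-scaled CPM. Acta2 and Myh11 chose the cells and Pdgfra removed the fibroblasts, so genes that go with these were co-selected, and their direction is not independent of the rule.

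Of 24 contractile genes tested, 22 rose and none fell, with a median log2 fold change of 2.37 against −0.20 over all genes. Without likely doublets, which left control 2 with 1 member, 17 of 24 rose, with a median of 1.94 against −0.33, and with every cell thinned to 1000 UMIs 14 of 22 rose, with a median of 1.79 against −0.65. Tagln (chr9:45929619-45936058, minus strand) ran from 6233 to 10353 CPM (median 7481) in the members and from 41.6 to 79.1 CPM (median 56.6) in fibroblasts. The groups did not overlap, as for 13.4% of all genes tested, and the log2 fold change was 7.08 (SE 0.22), with an adjusted p of 1.77e-214. Myl9 ran from 1476 to 3256 CPM (median 2378) against 82.3 to 111 CPM (median 102), a log2 fold change of 4.57 (SE 0.21). Transgelin and the light chain thus had UMIs in the fibroblast sums, at a small part of the member level. How much of this was background RNA of the droplets was not tested.

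Cnn1 and Actg2 rose by more than Tagln, and the other genes given here rose by less or did not pass. Cnn1 (chr9:22099216-22109630, plus strand) ran from 232 to 962 CPM (median 573) against 0 to 2.43 CPM (median 0.674), a log2 fold change of 9.52 (SE 0.29), and the enteric actin Actg2 averaged 231 ± 101 CPM (SD, n = 6) in the members, at 11.63 (SE 0.49). Tpm2 rose by 5.31 (SE 0.22), Lmod1 by 7.0 (SE 0.25), Des by 5.73 (SE 0.23), Synpo2 by 6.11 (SE 0.28) and Flna by 2.50 (SE 0.20), in 6 of 6 libraries each. Mylk, the kinase that starts contraction (1.00, SE 0.20), and Itga8 (1.03, SE 0.21) rose by the same test but missed the threshold without the likely doublets, at log2 fold changes of 0.67 and 0.60. Ppp1r14a, an inhibitor of myosin phosphatase (1.25, SE 0.20), also missed it there, at 0.79. Csrp1 and Synm did not pass, at 0.07 and 0.18.

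The 10 genes of largest rise were taken by the rule for named genes. Besides Actg2, Cnn1 and Mcam they included Actc1 (chr2:114047282-114053548, minus strand), at 902 to 1972 CPM (median 1183) in the members and 0.11 to 1.42 CPM (median 0.372) in fibroblasts (11.42, SE 0.31). Myocd, the gene of myocardin itself, averaged 51.7 ± 30 CPM (SD, n = 6; log2 fold change 9.53, SE 0.75), the ubiquitin ligase subunit Asb2 78.6 ± 33.1 CPM (SD, n = 6; log2 fold change 10.41, SE 0.70), the sarcomere proteins Tcap 90.3 ± 18.1 CPM (SD, n = 6; log2 fold change 8.92, SE 0.60) and Myom1 83.8 ± 40.9 CPM (SD, n = 6; log2 fold change 7.55, SE 0.58), the LIM protein Lmcd1 154 ± 109 CPM (SD, n = 6; log2 fold change 7.69, SE 0.51), and Kcnmb1, the smooth muscle subunit of the large-conductance potassium channel, 55.9 ± 26.2 CPM (SD, n = 6; log2 fold change 9.29, SE 0.72). Fibroblasts were under 2 CPM for each of these genes on average. The 10 genes thus entered the test through the members, so their direction is a description.

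**Figure D3:**
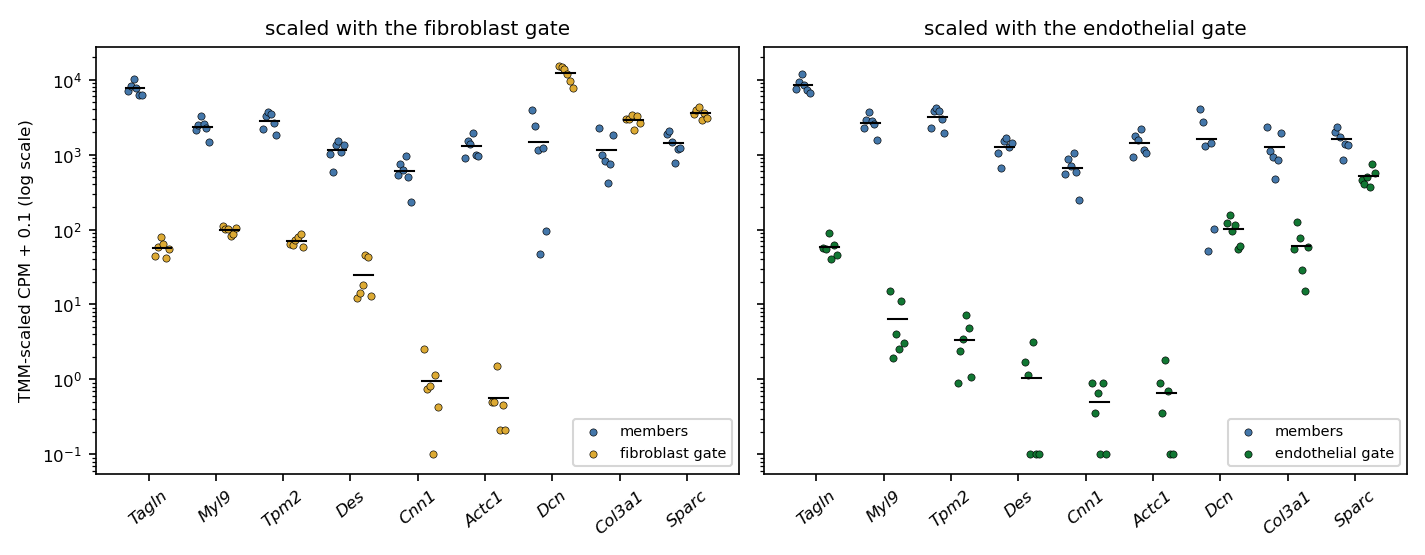
Levels of 9 genes in the members against the fibroblast gate (left) and the endothelial gate (right), in TMM-scaled CPM plus 0.1 on a log axis, 1 point a library and class and a line at the mean of 6. Contractile genes lie higher in the members in both panels, and Col3a1 lies lower than in fibroblasts on average and higher than in endothelial cells.

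Promoters of the contractile genes were searched for the CArG box, the site bound by serum response factor, in up to 250 bases before each RefSeq start (GRCm38.p6, both strands). A match occurred in 482 of 32851 windows (1.47%), in 3 of the 23 contractile genes with a window (Myl6, Myl9 and Vcl), in Actc1, and in 0 of 9 fibroblast and 0 of 9 endothelial marker genes. The 3 windows with a match outside annotated exons are shown, for genes that rose in the members, with the CArG box in capitals. It begins 47 bases before the start in Actc1, 161 in Myl9 and 227 in Vcl. The windows lie at chr2:114052888-114053125 (minus strand), chr2:156775214-156775419 (plus strand) and chr14:20929148-20929397 (plus strand).
Actc1: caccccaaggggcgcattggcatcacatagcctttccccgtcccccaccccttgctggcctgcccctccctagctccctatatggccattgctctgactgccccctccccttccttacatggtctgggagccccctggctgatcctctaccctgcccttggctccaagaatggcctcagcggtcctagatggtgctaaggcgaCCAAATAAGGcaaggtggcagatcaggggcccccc
Myl9: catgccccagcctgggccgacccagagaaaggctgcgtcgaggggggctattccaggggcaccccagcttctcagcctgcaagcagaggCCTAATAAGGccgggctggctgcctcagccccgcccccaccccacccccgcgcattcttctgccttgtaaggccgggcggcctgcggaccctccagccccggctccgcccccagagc
Vcl: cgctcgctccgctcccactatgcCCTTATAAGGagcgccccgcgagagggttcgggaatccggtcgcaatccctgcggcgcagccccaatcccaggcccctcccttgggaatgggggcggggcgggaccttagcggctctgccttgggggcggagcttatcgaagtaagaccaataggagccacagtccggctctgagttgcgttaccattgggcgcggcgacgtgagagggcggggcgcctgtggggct

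A match describes these letters only, and no binding was measured. Of 12 regulators of the contractile program tested, beside 16.7% of all genes called, 2 rose (Myocd, above, and Mef2c, 1.37, SE 0.24) and 1 fell, Klf4, a repressor of the program in dividing smooth muscle (−2.16, SE 0.22). Srf itself was at −0.47 (adjusted p = 0.315).

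Genes listed for pericytes split. Of 14 tested 7 rose and 4 fell, with a median of 0.44. Mcam averaged 234 ± 107 CPM (SD, n = 6; log2 fold change 8.72, SE 0.39), and the subunits of soluble guanylate cyclase, the nitric oxide receptor of mural cells, rose by 5.07 (SE 0.26) for Gucy1a3 and 5.50 (SE 0.39) for Gucy1b3. Postn rose by 4.33 (SE 0.26) and Cox4i2 by 6.24 (SE 0.63). The potassium channel subunit Abcc9 fell (−1.52, SE 0.29), as did the peptidase Anpep (−4.63, SE 0.81). Kcnj8 also fell (−1.10, SE 0.34), in 5 of 6 libraries. Its fall missed the threshold without control 1 (−0.96), without control 2 (−0.88) and with DESeq2 (−0.95). Rgs5 rose by 5.79 (SE 0.77) on 18 UMIs from 4 libraries. Rises and falls thus lay side by side in this list, with 7 and 5 of 14 without likely doublets.

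Receptors and calcium handling leaned higher, with 12 of 27 genes up, 4 down and a median of 1.10. The ATP-gated channel P2rx1 (10.06, SE 0.86), the endothelin receptor Ednrb (7.36, SE 0.50), the calcium channel Cacna1c (3.32, SE 0.35), the phosphodiesterase Pde3a (3.79, SE 0.35) and Rgs2, a brake on contractile receptors (2.50, SE 0.21), rose, and without likely doublets 11 of 26 were up and 4 down, and with cells thinned 5 of 13 up and none down. Against endothelial cells, described below, this list had 11 of 18 up and 3 down, without likely doublets 10 of 18 up and 3 down, and thinned 2 of 9 up and 3 down. Ednra, the main endothelin receptor of vascular muscle, did not pass (−0.23, adjusted p = 0.651). Adra1b, an adrenergic receptor, was at 0 in the members and at least 3.94-fold lower than in fibroblasts, taking 3 UMIs over all members as the floor. Of the 5 airway smooth muscle genes listed, 3 were tested (Actc1, Hhip and Lgr6), and all 3 rose. Chrm3 had 0 UMIs in the members, and Chrm2 had UMIs only in control 4 and the library labelled Zip8 knockout 1. Actc1 had 0 UMIs in the Hhip cells, so the rises of Actc1 and Hhip came from different cells. Without the Hhip and Dcn cells 2 rose and Hhip fell, which follows from removing cells by their Hhip count. Actc1 and Lgr6 averaged 0.46 and 0.67 CPM in fibroblasts. These genes entered the test through the members, so their direction is a description.

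Hhip stood out by its source. It ran from 46.9 to 1088 CPM (median 429) in the members against 30.8 to 46.9 CPM (median 36.7) in fibroblasts and rose by 3.65 (SE 0.23), but 253 of its 258 UMIs came from the 9 Hhip cells. Without the Hhip and Dcn cells its log2 fold change was −1.83, a direction that follows from removing cells by their Hhip count.

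Matrix genes were mostly lower than in fibroblasts. Of 19 elastic fibre and interstitial genes 14 fell and 1 rose, with a median of −1.33. Mfap4 (−3.63, SE 0.23), Fbln1 (−2.90, SE 0.24) and Fbn1 (−2.40, SE 0.24), which build microfibrils, and Sparc (−1.35, SE 0.18) fell. Eln, elastin, did not pass (0.31, adjusted p = 0.326). Basement membrane genes split, with 5 of 17 up and 7 down: Col18a1 (2.43, SE 0.22) and the laminin chain Lama5 (3.41, SE 0.58) rose, while Nid1 (−2.67, SE 0.29), Lamb1 (−2.52, SE 0.29) and Lama2 (−1.74, SE 0.26) fell. Without likely doublets 14 of 19 elastic fibre and interstitial genes fell and none rose, and of 17 basement membrane genes 3 rose and 5 fell.

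All 14 fibroblast marker genes tested fell, with a median of −3.09, a direction that the exclusion of Pdgfra favours. Dcn ran from 46.9 to 3924 CPM (median 1184) in the members against 7808 to 15045 CPM (median 12902), with a log2 fold change of −3.65 (SE 0.20). The spread in the members followed the Dcn cells, of which control 4 and the library labelled Zip8 knockout 2 had none. Several fibroblast genes were at 0 in every member: the chemokine Ccl11, at least 45.6-fold lower, Apod, at least 27.2-fold lower, and Lrat, a retinol-storing enzyme of lipofibroblasts, at least 9.81-fold lower. C7 (−7.63, SE 0.53), Ly6c1 (−7.36, SE 0.55) and Mmp3 (−6.83, SE 0.42) were also among the 10 of largest fall.

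Signalling, stress and immune lists were counted next, beside 5.47% of all genes higher and 11.3% lower. PDGF, TGF-beta and angiopoietin genes had 5 of 24 up and 8 down, with Angpt2 (1.83, SE 0.38), an antagonist ligand of Tie2, and Pdgfa (1.84, SE 0.27) up and the receptors Tgfbr2 (−1.43, SE 0.24) and Acvrl1 (−1.99, SE 0.33) down. Of 12 Notch genes 1 rose, Hey2 (3.02, SE 0.73), a count near the share of all genes that rose. Fibrosis genes had 4 of 12 up, Ctgf among them (1.59, SE 0.19), and 6 down, among them Col1a1 (−2.30, SE 0.20) and Col3a1 (−1.49, SE 0.19). Dissociation stress genes fell in 12 of 21 and rose in 1 (Hspa1a), MHC class I genes fell in 7 of 15, interferon genes in 6 of 23 and zinc transporter and metallothionein genes in 2 of 19, with none rising in the last 3 lists. The zinc count lay near the share of all genes that fell. Without likely doublets PDGF, TGF-beta and angiopoietin genes had 3 of 23 up and 8 down, stress genes none up and 10 of 21 down, MHC class I genes 5 of 15 down, interferon genes 3 of 22 down, zinc genes 1 of 19 down and fibrosis genes 3 of 12 up and 6 down. In that setting 448 of 10841 genes rose and 1012 fell over all genes. With cells thinned, none of 18 PDGF, TGF-beta and angiopoietin genes rose and 5 fell, and none of 21 stress genes rose and 14 fell. Slc39a8 was at −0.49 (adjusted p = 0.821) on the 3 UMIs above.

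**Figure D4:**
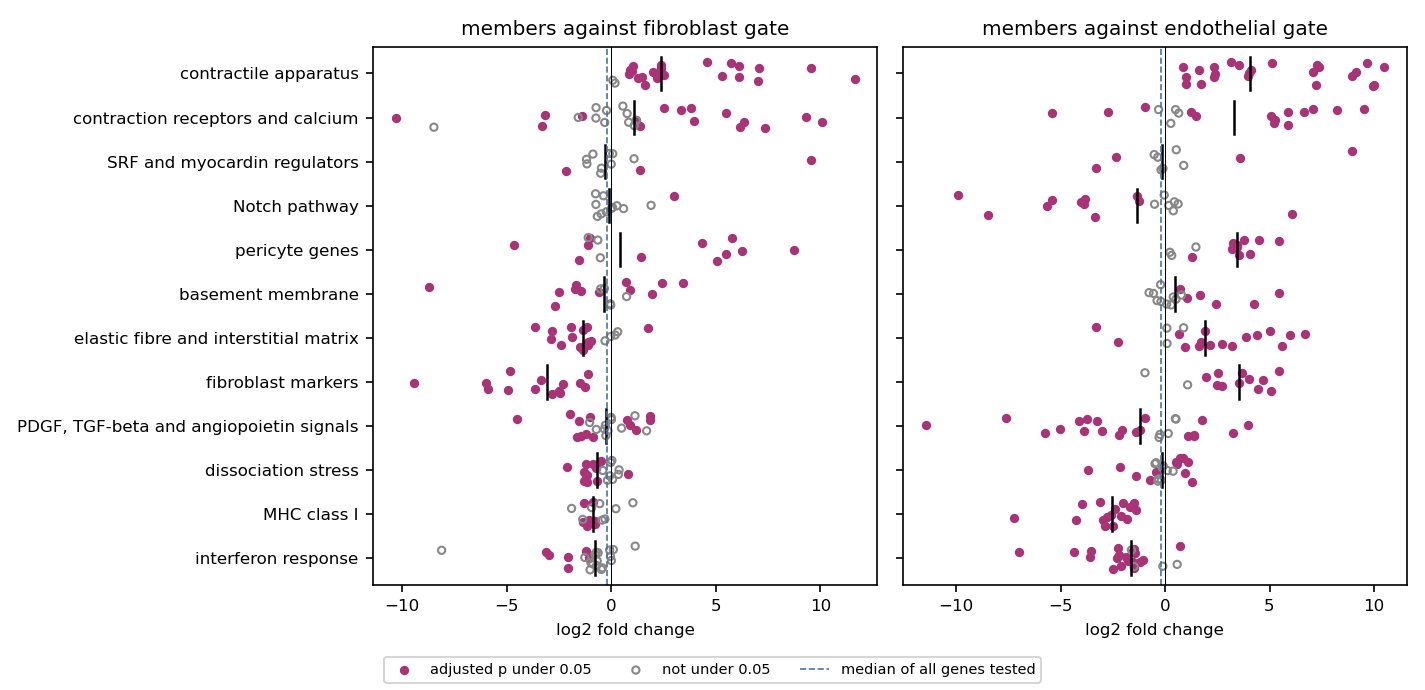
Log2 fold changes of the tested genes of 12 lists, members against the fibroblast gate and against the endothelial gate. Filled points passed an adjusted p of 0.05 and bars mark list medians, at 2.37 and 4.08 for the contractile list, with dashed lines at the medians of all genes (−0.20 and −0.18).

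The balance of calls depended on scaling. Rises were 32.7% of calls in the main test, 43.7% with RLE factors (752 of 1720 calls), which also moved the median of all genes from −0.20 to −0.04, and 50.7% with DESeq2 (682 of 1344). With every cell thinned to 1000 UMIs, 104 of 1062 calls were rises (9.79%), and Mylk (log2 fold change 0.46), Itga8 (0.25), Mef2c (0.68), Abcc9 (−1.07), Angpt2 (1.64) and Pdgfa (0.24) missed the threshold. The contractile rises named above other than those of Mylk, Itga8 and Ppp1r14a kept their call under each of these settings, save that Actg2 was not tested with thinned cells.

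Endothelial cells line the vessels that mural cells wrap, and they were taken as the other comparison. Against 2227 barcodes gated by Cdh5 and Pecam1, which used the same member sums as the fibroblast contrast, edgeR (quasi-likelihood, Benjamini-Hochberg adjustment) called 2488 of 9136 genes (27.2%), 984 higher (10.8%) and 1504 lower (16.5%). Contractile genes rose in 24 of 24 tested, with a median of 4.08 against −0.18 over all genes, and pericyte genes in 10 of 13, with a median of 3.42. Endothelial genes fell in 12 of 13. Without likely doublets 22 of 24 contractile and 10 of 12 pericyte genes rose and 12 of 13 endothelial genes fell. The groups did not overlap for 19.4% of all genes.

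Contractile genes were low in the endothelial sums. Cnn1 ran from 248 to 1061 CPM (median 641) in the members against 0 to 0.795 CPM (median 0.412), a log2 fold change of 10.48 (SE 0.35), Actc1 rose by 11.11 (SE 0.33), Des by 10.02 (SE 0.33), Tpm2 by 9.97 (SE 0.28), Actg2 by 9.65 (SE 0.47) and Myl9 by 8.95 (SE 0.30). Tagln ran from 6652 to 11778 CPM (median 8039) against 40.4 to 89.3 CPM (median 55.6), at 7.21 (SE 0.22). The other genes of largest rise were Aspn (10.42, SE 0.37), Hhip (9.56, SE 0.36), the nucleotide-sugar receptor P2ry14 (9.52, SE 0.52), the neurotrophin receptor Ntrk3 (9.37, SE 0.60) and Kcnk3, a potassium channel of pulmonary artery muscle, which was at 0 in the endothelial sums and at least 564-fold higher in the members. The 10 genes of largest rise averaged at most 3.25 CPM in the endothelial sums. They entered the test through the members, so their direction is a description. The Hhip cells gave 187 of the 286 Aspn UMIs and 253 of the 258 Hhip UMIs of the members.

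Single genes of mural signalling are given with the counts of their lists. Ednra rose by 7.07 (SE 0.58), Angpt1, the Tie2 ligand supplied by mural cells, by 3.24 (SE 0.40), Pde5a, which degrades cyclic GMP, by 4.50 (SE 0.40), Gucy1a3 by 3.42 (SE 0.24) and Itga8 by 7.36 (SE 0.28). Against fibroblasts Angpt1 stood at −1.02 (SE 0.26), a fall that missed the threshold with DESeq2 at −0.86, with at least 4 markers at −0.77 and without the Hhip and Dcn cells at −0.67. Of 17 Notch genes 10 fell, among them Notch1 (−4.02, SE 0.36), and 1 rose, Heyl, a target of Notch3 (6.06, SE 0.62), which did not pass against fibroblasts (0.27, adjusted p = 0.653); Dll4 was at 0 in the members and at least 19.3-fold lower. Without likely doublets 11 of 18 Notch genes fell and 1 rose. Of the PDGF, TGF-beta and angiopoietin genes 14 of 25 fell and 6 rose. Rgs5 was at 1.48 (adjusted p = 0.0574).

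Endothelial genes at 0 in all members, each at least as many fold lower as given, were Icam2 (117), Cd93 (111), S1pr1 (90.2), Sox18 (77.9), Stab1 (62.8), Emcn (60.7) and Tie1 (57.2). Vwf (−9.62, SE 0.37), Cldn5 (−7.64, SE 0.32) and Kdr (−5.75, SE 0.38) fell. These endothelial genes were thus at or near 0 in the members, a direction that the rule favours, as it set Cdh5 to 0.

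The interstitial matrix list, which leaned lower against fibroblasts, leaned higher against endothelial cells. Elastic fibre and interstitial genes had 14 of 19 up and 2 down, with Col6a3 (6.70, SE 0.34), Col3a1 (4.45, SE 0.25) and Eln (1.71, SE 0.19) up and Fbln2 (−3.29, SE 0.30) and Fbln5 (−2.27, SE 0.28) down. Basement membrane genes had 6 of 16 up and none down, and with thinned cells 2 of 11 up and 1 down. Col1a1 rose by 5.09 (SE 0.24), and the fibroblast list rose in 11 of 13, with a median of 3.53. Without the Hhip and Dcn cells 8 of 12 fibroblast genes rose and 1 fell, with a median of 2.07. MHC class I genes fell in 16 of 16, among them H2-K1 (−2.41, SE 0.20) and B2m (−1.84, SE 0.19), and interferon genes in 18 of 23 with 1 rise, Ifi27 (0.70, SE 0.21), which missed the threshold without likely doublets at a log2 fold change of 0.56, with no filter at 0.57, with at least 4 markers at 0.31 and with thinned cells. Without likely doublets elastic fibre and interstitial genes had 12 of 19 up and 2 down, basement membrane genes 5 of 16 up, fibroblast genes 12 of 13 up, and interferon genes 17 of 23 down with none up. Of 18 zinc transporter and metallothionein genes 2 rose, the metallothioneins Mt1 (2.29, SE 0.25) and Mt2 (2.58, SE 0.36), and 1 fell. The count of rises lay near the share of all genes that rose. Against fibroblasts Mt1 fell. That fall missed the threshold without control 1 (−0.62), without control 2 (−0.67), with DESeq2 (−0.75) and without likely doublets (−0.81).

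The share of Acta2/Myh11 cells among kept barcodes was higher in both libraries labelled Zip8 knockout than in all controls under the member rule, a difference that a two-sided exact permutation test did not pass and whose order 4 other rules did not keep. It was 0.0959%, 0.147%, 0.163% and 0.0922% in controls 1 to 4 (exact 95% intervals 0.0386 to 0.197, 0.0805 to 0.247, 0.0842 to 0.284 and 0.0398 to 0.182) and 0.203% and 0.225% in the libraries labelled Zip8 knockout (0.105 to 0.355 and 0.116 to 0.392). The means were 0.125% ± 0.0359 (SD, n = 4) and 0.214% ± 0.0152 (SD, n = 2), a difference of 0.0894 percentage points with an exact p of 0.133, where the 15 splits allow no p below 0.0667. Kept barcodes were also deeper under the knockout label, with medians of 10988 and 12463 UMIs against 10193, 6107, 9519.5 and 7065 in controls 1 to 4, and CD45- enrichment came before these shares; the part of either was not tested. The intervals cover counting error only.

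Under these 4 rules the difference was smaller and the groups overlapped, while without likely doublets it was 0.128 percentage points. Removing likely doublets left control 2 with 1 member and a share of 0.0125%, against 0.147% under the member rule. With at least 10 Myh11 UMIs the shares were 0.0411%, 0.0947%, 0.0815% and 0.0461% in controls 1 to 4 against 0.136% and 0.0375% under the knockout label (difference 0.0207 percentage points, exact permutation p = 0.6). Control 3 lay above both libraries labelled Zip8 knockout with at least 4 markers (0.122%, difference 0.0421), with at least 1000 genes and under 10% mitochondrial UMIs (0.227%, difference 0.0753) and without barcodes that another library held with more UMIs (0.239%, difference 0.0721).

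Thinned to 1000 UMIs a cell, Myh11 was detected in 57.1%, 71.4%, 75.0% and 75.0% of the members of controls 1 to 4 and in 75.0% and 58.3% of those labelled Zip8 knockout. The means were 69.6% ± 8.50 (SD, n = 4) and 66.7% ± 11.8 (SD, n = 2), given with no test because Myh11 chose the members. Unthinned, they were 96.9% and 100%. At 2 or more Myh11 UMIs, unthinned, the shares were 100%, 100%, 91.7% and 87.5% in controls 1 to 4 against 83.3% and 75.0%, a difference of −15.6 percentage points.

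Between the genotypes no gene passed the test, and the contractile list had a median log2 difference below 0. A library entered the planned test with at least 10 members, which left controls 2 and 3 against both libraries labelled Zip8 knockout. There edgeR (quasi-likelihood, Benjamini-Hochberg adjustment) called 0 of 1566 genes (0%), 94 had an unadjusted p under 0.05, and DESeq2 called 1, Igfbp6. With all 6 libraries, a setting added after the data were seen, it called 0 of 1433 genes (0%), with 96 at an unadjusted p under 0.05 and 3 by DESeq2 (Igfbp6, Ccl2 and Cbr2).

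Acta2, in the fit of 6 libraries, stood at 14133, 18427, 19705 and 19628 CPM in controls 1 to 4 against 12272 and 9962 CPM under the knockout label, a log2 difference of −0.69 that is given with no test, since Acta2 is in the member rule. Tagln stood at 10883, 12121, 14147 and 13674 against 8774 and 9504 CPM (−0.48, SE 0.24, adjusted p = 0.758 by edgeR), and Myl9 at 3272, 3736, 4449 and 4476 against 3151 and 2251 CPM (−0.55). Both libraries labelled Zip8 knockout were below all controls for these 3 genes, in sums that include the largest member. That barcode held 39.99% of the member UMIs of the library labelled Zip8 knockout 1, with 6 of Tagln and 3 of Acta2. Cnn1 stood at 807, 1129, 842 and 1684 against 708 and 354 CPM (−1.01, adjusted p = 0.641). Actc1 overlapped, at 1374, 2282, 1867 and 3449 against 1402 and 1480 CPM. Ctgf stood at 2072, 3063, 4702 and 3490 against 1666 and 667 CPM (−1.50, adjusted p = 0.386).

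Of 24 contractile genes tested, none passed. The groups did not overlap for 15 of 24 over 4 libraries, against 34.8% of all genes, and for 8 of 24 over 6 libraries, against 13.2%. The list's median log2 difference was −0.31 against 0.03 over all genes in the 4 libraries and −0.28 against −0.02 in the 6. Of 20 dissociation stress genes none passed either, 11 did not overlap over 4 libraries and 5 over 6, and their medians were 0.79 and 0.47.

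The makeup of the members moved with the contractile sum. The list summed to 31252, 35691, 38286 and 43764 CPM in controls 1 to 4 against 21914 and 26578 CPM under the knockout label. Without the largest member the library labelled Zip8 knockout 1 rose to 35762 CPM, inside the range of the controls. Among the 52 cells that were neither Hhip nor Dcn cells, the sums were 48973, 42436, 48588 and 43764 CPM against 48769 and 32893 CPM, so that the library labelled Zip8 knockout 2 alone stayed below the controls. In these 52 cells the median Myh11 count was 33.5, 25, 18.5 and 10 against 32 and 4 UMIs, so the same library was also the lowest there. In sums of so few cells, fewer cells of a kind and less RNA per cell cannot be told apart.

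Ccl2 and Igfbp6, named here after their values were seen, rested on few cells. Ccl2, a monocyte chemokine (chr11:82035571-82037453, plus strand), had 1, 1, 0 and 0 UMIs in controls 1 to 4 and 18 and 24 UMIs in the libraries labelled Zip8 knockout, in 2 cells of each. Its log2 difference over 6 libraries was 5.06 (SE 0.78, adjusted p = 0.0539). Igfbp6, which binds insulin-like growth factor 2 (chr15:102144362-102149511, plus strand), had 128, 91, 62 and 4 UMIs against 6 and 2 (−4.21, adjusted p = 0.246), and 280 of the 293 UMIs came from the 4 Dcn cells. Scgb1a1 was higher by 4.26 (adjusted p = 0.165) through the largest member. The same barcode held 237 of the 255 Cbr2 UMIs of the library labelled Zip8 knockout 1.

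**Figure D5:**
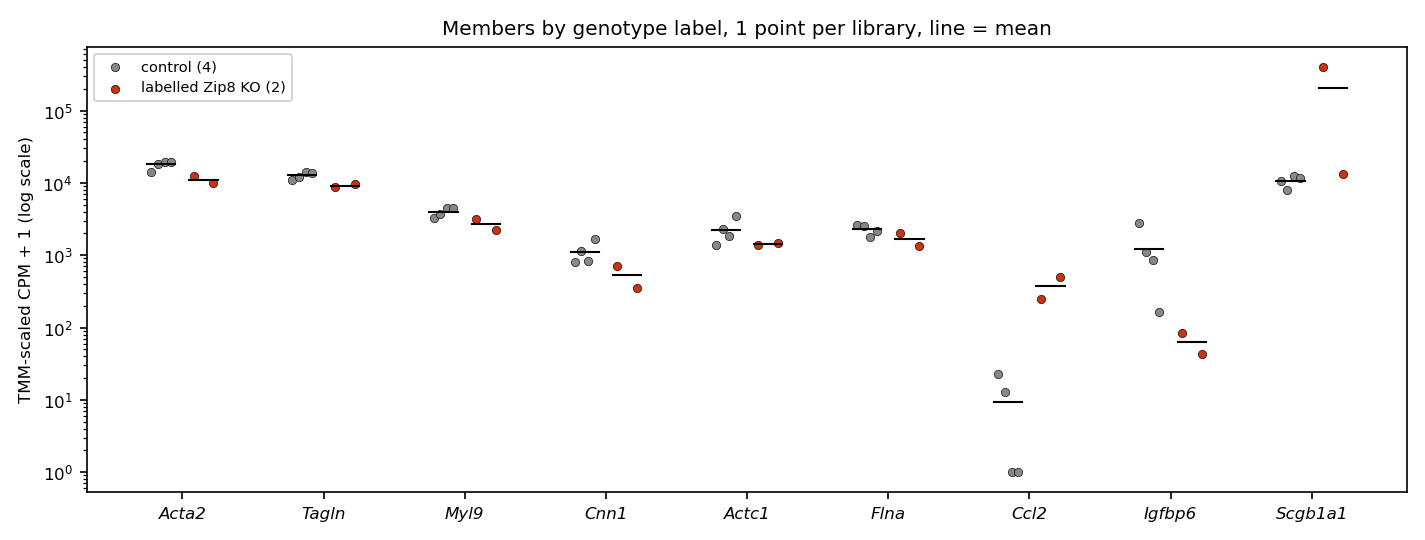
Levels of 9 genes per library in the members, in TMM-scaled CPM plus 1 on a log axis from the fit of 6 libraries, 4 control points and 2 labelled Zip8 knockout. With the largest member included, Acta2, Tagln, Myl9 and Cnn1 lie lower in both libraries labelled Zip8 knockout and Ccl2 higher. No gene tested had an adjusted p under 0.05.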

How the data were processed

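The deposited counts are whole UMI counts per gene and barcode over 27998 genes, made by the authors with Cell Ranger (the matrix header gives software version 3.1.0) on mm10, and no reads were used. From these counts, members and comparison gates were found by detected genes, and UMIs were summed per library and class. The members and gene lists were chosen with earlier results of these data known. Sums were scaled by TMM, filtered by filterByExpr and tested with edgeR 4.0.16 (R 4.3.3) by the quasi-likelihood test with Benjamini-Hochberg adjustment at 0.05, with the library as a block where both classes came from the same library. Genes of the gates stayed out of counts of called genes. Genotype sums needed at least 10 members. Shares of members were compared by an exact permutation test over the 6 libraries. The same test was planned for Myh11 detection and is not given, because Myh11 is in the member rule. The Myh11-positive against Myh11-negative contrast and its interaction with genotype could not be fitted. DESeq2 1.42.0, RLE factors, no filter, thinning to 1000 UMIs, removal of likely doublets and leaving out each library were alternatives, with 21 added after the data were seen.

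Genes named are those of the member rule, tested genes of the lists, and the 10 of largest rise and fall with adjusted p under 0.05, at least 50 CPM in the higher class and the same direction in every library; the rule for genotype (the 5 of smallest adjusted p in each direction) named none. A gene at 0 was given a floor of 3 UMIs over the group. The samples are taken as separate mice only as far as the labels say, so p-values measure the spread between these libraries. Doublets were scored from simulated pairs at 0.8% per 1000 barcodes, since the sources used here do not say that doublets were removed. Replicate numbers 1 and 2, shared by the groups, were not taken as pairs in the planned test. The deviations of controls 1 and 2 correlated with those of the same number at 0.0818 and −0.126. The 2 libraries labelled Zip8 knockout deviate from their mean as mirror images, so this check cannot decide whether libraries were paired.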

Additional observations from a re-analysis of the deposited data

Results flagged for a closer look

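Mcam, the adhesion molecule of smooth muscle and pericytes, stood at 446 CPM in the members of control 4 in the fit against fibroblasts, set apart from the other controls, of which the nearest was at 218 CPM, by 0.874 of the range of the 4 controls, past Dixon's critical value for 4 samples. Control 4 also had the fewest member UMIs (31761), and its Mcam level rested on 19 UMIs in 6 cells. Of 24 values checked in this way 1 stood apart, and chance sets apart about 1 in 20.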

How the results depend on the processing

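The count of genes called against fibroblasts was 1474 to 1743 when each library was left out in turn, 1460 without likely doublets and 2326 without the Hhip and Dcn cells, and 1062 with cells thinned to 1000 UMIs. Against endothelial cells it was 2097 to 2398 with each library left out, 2038 without likely doublets and 1168 with thinned cells. For genotype, 0 calls became 65 with no filter on low counts, 1 with DESeq2, 3 with DESeq2 on all 6 libraries, 1 on all 6 without the largest member (Ccl2), and 36 on all 6 with the replicate block. It was 0 with each of the 4 libraries left out (1 library then stands alone in its group and is assumed to vary like the others, as when a knockout library is left out of the 6, and without likely doublets, where control 3 stands alone with 0 calls), and 0 to 45 with each of the 6 left out (45 without the library labelled Zip8 knockout 2, where Scgb1a1 of the largest member was among the calls). The difference in member share ran from 0.0787 to 0.102 percentage points with each library left out, and was 0.128 without likely doublets (exact permutation p = 0.0667, the smallest allowed), 0.0753 with stricter cells (p = 0.333), 0.0721 without shared barcodes (p = 0.267), 0.0421 with at least 4 markers (p = 0.267) and 0.0207 with at least 10 Myh11 UMIs (p = 0.6). The difference in Myh11 detection was 12.5 percentage points without likely doublets, 3.12 without thinning, −15.6 with at least 2 UMIs and no thinning, −4.08 with stricter cells and, with each library left out, ran from −11.3 to 5.36. Against fibroblasts, the log2 fold change of Csrp1 ran from −0.082 to 0.149 with each library left out (below 0 without control 3). It turned to −0.017 with no filter, −0.43 with thinned cells and −0.35 without likely doublets. That of Synm ran from −0.158 to 0.472 (below 0 without control 1 or 3) and turned to −0.988 thinned and −0.015 without likely doublets. That of Eln turned to −0.11 thinned and −0.25 without likely doublets. That of Hhip was −1.83 without the Hhip and Dcn cells, a setting that removes cells by their Hhip count. Of the other single-gene values, 1411 of those against fibroblasts kept direction and call, 60 lost it and 4 gained it, as did 831, 7 and 8 against endothelial cells and 296, 0 and 20 for genotype. The cause of these changes was not tested, and alternatives that left fewer than 3 libraries with 10 members (stricter cells, members with fibroblast RNA removed) gave no value in the planned genotype test (stricter cells on all 6 libraries called 0 of 1131 genes), nor did any for the Myh11 contrast.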

Other observations

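Some genes outside the lists rested on single members. Sost, the secreted Wnt inhibitor sclerostin, had 52 UMIs in 4 cells, 43 of them in 1 cell of control 2, and all 4 lay among the 52 cells that were neither Hhip nor Dcn cells. The cytokine Lif had 34 UMIs in 2 cells of the library labelled Zip8 knockout 2, 33 of them in 1 Hhip cell. The neutrophil chemokine Cxcl1 had 8, 1, 0 and 3 UMIs in controls 1 to 4 and 11 and 48 UMIs in the libraries labelled Zip8 knockout 1 and 2, in 7 cells in all.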
